A study of Homo sapiens with 12 samples.

Results

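TIGK cells, human keratinocytes of the gingiva made immortal by the telomerase gene hTERT and kept as a line, were compared after 24 h with 500 μM L-arginine (Arg) and after 24 h without added Arg, and the genes that changed are described here by function. The comparison uses the 3 Arg libraries and the 3 untreated control libraries of the 24 h time point, replicates A, B, and C of each group, which are 6 of the 12 libraries of the study. The members were chosen by these labels alone, and all genes of the count table entered the test. Weight is given to genes outside 4 classes, namely ribosomal proteins, splicing factors, mitosis genes, and the genes CYP1A1, SKP2, and SRSF5.
Both groups were kept at 48 mM D-glucose in DMEM-SILAC Flex medium, a base without Arg, supplemented with insulin, hydrocortisone hemisuccinate, epinephrine, TGF-α, apo-transferrin, L-lysine, L-glutamine, and an extract of pituitary. No Arg was added for the control, and the comparison is between cells supplied with Arg and cells kept without it. The other 6 libraries hold the same groups at 48 h. All libraries come from this single cell line, grown in 6-well plates. The sources do not say that the replicates were separate passages, so the p-values measure the spread between these samples, which may be technical.
Arg is a building block of protein and the starting point of several pathways. Arginase splits it to ornithine and urea, nitric oxide synthases make nitric oxide from it, and polyamines and creatine derive from it. Cells take it up through cationic amino acid transporters and sense it upstream of the growth-promoting kinase mTORC1, and a shortage of amino acids raises the transcription factor ATF4. Gingival keratinocytes form the epithelium of the gum, in which basal cells divide and suprabasal cells make keratins, junctions, and a barrier.

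The libraries held between 17499361 and 19040964 counts. Keratinocyte markers were abundant, with 10 markers summing to between 41681 and 48645 CPM (counts scaled to a common library size, TMM-normalized for the single genes below) in the control and between 46495 and 54137 CPM with Arg. Of the markers of other cell types, COL1A2 (fibroblasts), TYR (melanocytes), and LYZ (leukocytes) had 0 counts in all 6 libraries, the summed level of 7 fibroblast markers lay between 33.2 and 54.3 CPM in the control and between 29.7 and 40.3 CPM with Arg, and the 4 endothelial and 4 leukocyte markers did not exceed 2.94 and 0.578 CPM in any library. Of the fibroblast markers, DCN fell (−0.70, adjusted p = 0.0294), and COL1A1 (0.06), LUM (0.10), and PDGFRB (−0.19) did not pass the test. The summed level of 5 melanocyte markers, most of it MITF, lay between 20.9 and 25.8 CPM in the control and between 15.9 and 18.6 CPM with Arg, and MITF fell (−0.49, adjusted p = 0.0280). The melanocyte marker PMEL had a log2 fold change of 0.36 and did not pass. What part such cells had in the results was not tested. As in any bulk sample, fewer cells of a type and less RNA per cell cannot be told apart. On the leading axis of a principal component analysis, which held 37.9% of the variance, control replicates A and C lay at −26.8 and −25.5, the 3 Arg libraries between 17.1 and 24.6, and control replicate B at −11.7. Replicate B was thus the control library nearest to the Arg libraries, and results that rest on it are given with this in view.

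edgeR's quasi-likelihood test covered 14279 genes. At a Benjamini–Hochberg adjusted p under 0.05, 6.63% of them changed, 2.79% upward and 3.84% downward with Arg. Outside the 4 classes, 13874 genes were tested and 884 changed, 343 of them higher and 541 lower with Arg. The largest shifts were downward. A log2 fold change beyond 1 in size was found in 34 of the genes that rose and 95 of the genes that fell, and the median size over the 884 genes was 0.53. In 847 of the 884 genes, no Arg library lay within the range of the controls or beyond it on the far side, where such separation was found in 26.2% of all tested genes. A single gene cannot reach a p below 0.1 in an exact permutation test of 3 libraries against 3, so each call below rests on the spread that edgeR shares between genes.
Some technical features moved with the calls. The genes that rose had a median exonic length of 5416 bases, those that fell 4135 bases, and all tested genes outside the 4 classes 4799 bases. With a correction for length, 438 genes rose and 612 fell over all classes, against 398 and 549 without it. Among the 541 genes that fell, the lowest of the controls was replicate B in 316, replicate C in 125, and replicate A in 100, and among the 343 that rose, the highest control was replicate B in 179. Without control replicate B, 647 genes rose and 882 fell over all classes, and without control replicate A 126 rose and 233 fell. Of the 170 named genes that changed, 86 kept their call in each of the 6 fits that left out a library and 66 lost it in 3 or more. Calls were lost in 71 of them without control replicate A, 64 without control replicate C, 3 without control replicate B, and 16, 65, and 67 without Arg replicates A, B, and C. Of the 47 gene lists, 21 held over 1.5 times as many calls without control replicate B, and these counts stand beside the lists. What part length and this library had in the calls was not tested beyond these refits. The lists were chosen with earlier results of these data known. A share of called genes above that of all genes is therefore a description and no test of a list.
Reads of genes that overlap on opposite strands cannot be told apart where counting ignores strand, which the sources do not state. Besides the genes marked as uncertain below, this touches CYP1B1, ALDH1L2, FGFR1, TGFB1, RSAD2, IGF2BP3, STAG3, NR1D2, TNFAIP3, ANGPTL4, ATP5PO, SETD5, KRT10, and DDIT3. AHRR overlaps PDCD6, and SERPINB8 overlaps HMSD, on the same strand.

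**Figure D1:**
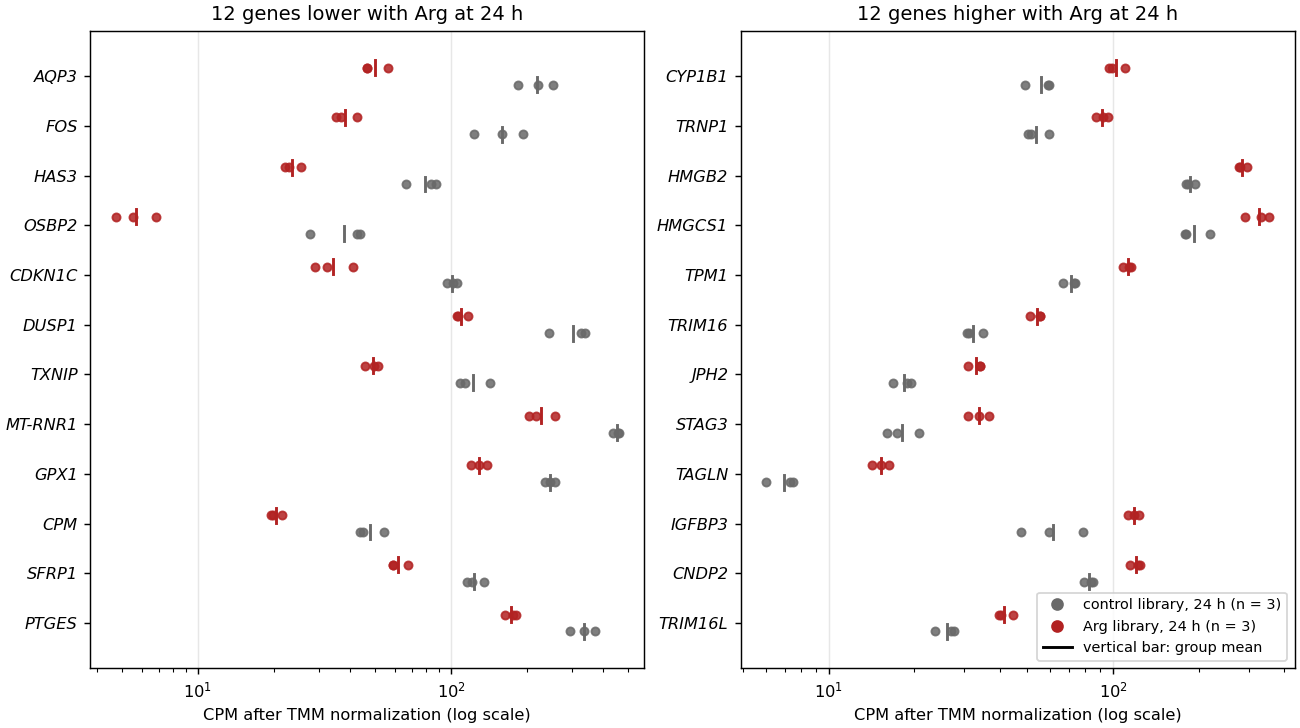
CPM after TMM normalization, on log axes, of the 24 leading genes outside the 4 classes, 12 with the smallest p among those that fell (left) and 12 among those that rose (right). Each point is a 24 h library (grey, untreated control; red, Arg; 3 each) and each vertical bar a group mean. In all 24 genes the Arg libraries lie apart from the control libraries, and the shifts are wider in the left panel.

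The 12 genes that fell with the smallest p held a water channel, an early-response transcription factor, a hyaluronan synthase, and a cell cycle inhibitor, with log2 fold changes between −2.73 and −0.93. AQP3, the channel that lets water and glycerol into keratinocytes, had 252, 221, and 184 CPM in control replicates A, B, and C and 46.7, 46.8, and 56.2 CPM with Arg. AQP3 was thus lowered 4.39-fold, and each Arg library held less than any control library. The only other water channel gene that passed the filter on low counts, AQP11, did not pass the test.
HAS3, which makes hyaluronan at the plasma membrane, had 87.2, 66.6, and 83.6 CPM in the control and 22.9, 22.1, and 25.5 CPM with Arg (log2 fold change −1.75). HAS3 (chromosome 16 of GRCh38, 69105564 to 69118719, plus strand) overlaps CHTF8 on the opposite strand, and since the sources do not state whether reads were counted by strand, its value is uncertain. CHTF8 itself had a log2 fold change of 0.07 and did not pass the test. Of the 8 tested genes of hyaluronan synthesis, receptors, and degradation, 3 fell and 0 rose, with a median of −0.28. The other two make the sugar precursors of hyaluronan. UGP2 (−0.51, adjusted p = 0.00371) makes UDP-glucose, and UGDH (−0.36, adjusted p = 0.0321) oxidizes it to UDP-glucuronic acid. The call of UGDH was lost in 4 of the 6 fits that left out a library.
OSBP2, an oxysterol-binding protein, showed the widest shift of the 12, from 43.6, 27.7, and 42.4 CPM to 4.74, 6.84, and 5.58 CPM (−2.73, SE 0.18). Among the 12 oxysterol-binding protein genes tested, OSBP2 was the one that fell, and OSBPL5 rose (0.98, adjusted p = 0.0306), from between 1.81 and 2.61 CPM to between 3.58 and 5.19 CPM. The call of OSBPL5 was lost in 4 of the 6 fits that left out a library.
CDKN1C, which encodes the CDK inhibitor p57, had 102, 105, and 96.6 CPM in the control and 29.1, 32.3, and 40.9 CPM with Arg, a 2.96-fold decrease. It stood alone in its list. Of 8 CDK inhibitor genes tested, CDKN1C fell and the other 7 did not pass the test, whereas without control replicate B 1 rose and 1 fell. CDKN1A (p21) had a log2 fold change of 0.09 (adjusted p = 0.588) and CDKN1B (p27) of 0.30 (adjusted p = 0.0702).
The remaining genes of the lower group include a protease and a secreted WNT antagonist. CPM, here the gene of the membrane enzyme carboxypeptidase M, fell by 1.23 on the log2 scale. Its reads cannot be told from those of MDM2 on the opposite strand, which overlaps it and had 7195 counts in the 6 libraries against 3704 for carboxypeptidase M. MDM2 had a log2 fold change of −0.24 and did not pass the test. SFRP1, a secreted inhibitor of WNT ligands, went from 121, 115, and 135 CPM to 59.0, 59.3, and 67.6 CPM.

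Immediate early genes, which growth factors and stress switch on within minutes, included several that fell with Arg. Of 30 tested genes of this list, which includes the AP-1 subunits, 10 fell and 0 rose (33.3%, against 6.63% of all genes), and the list median was −0.22, where the median of all genes was 0.00. FOS, the AP-1 subunit, had 193, 124, and 159.6 CPM in the control and 36.6, 35.3, and 42.6 CPM with Arg (−2.05, SE 0.13, adjusted p = 4.26e-08 from edgeR's test). Its relative FOSB followed from 18.9, 8.22, and 17.4 CPM to 4.19, 3.70, and 3.58 CPM (−1.96). In both genes every Arg library lay below every control library, and control replicate B was the lowest of the controls. FOSB overlaps ERCC1 on the opposite strand (3066 counts against 1020), and ERCC1 had a log2 fold change of −0.27 without passing the test.
ATF3, a stress-induced transcription factor, went from 25.5, 13.5, and 26.4 CPM to 8.65, 7.35, and 8.89 CPM (−1.39, adjusted p = 0.000464). IER3, an early-response survival gene, fell by 0.82 and JUN, the partner of FOS in AP-1, by 0.48 on the log2 scale. The others that fell were FOSL1 (−0.78), JUND (−0.48), NR4A1 (−0.90), MAFF (−0.58), and KLF4 (−0.45), of which FOSL1 and MAFF had overlapping groups. EGR1, a classical member of the same early response, did not pass the test. It had 298, 152, and 254 CPM in the control and 196, 239.9, and 212 CPM with Arg, and these ranges overlapped (−0.12, adjusted p = 0.697). FOS, FOSB, ATF3, IER3, and JUN kept their call in each of the 6 fits that left out a library.
Some MAP kinase phosphatases and ERK feedback inhibitors fell beside them. The DUSP genes of this list remove phosphates from MAP kinases, not in each case from ERK, and the Sprouty genes act further upstream in ERK signalling. Of 16 tested, 8 fell and 0 rose (median −0.37), against 5 that fell with DESeq2. DUSP1 had 326, 245, and 339.5 CPM in the control and 107, 105, and 117 CPM with Arg (−1.47, adjusted p = 1.52e-07). DUSP10 (−1.53) and DUSP4 (−1.11) also held their calls in all 6 fits without a library, and in all 3 genes the groups did not overlap. DUSP6, a phosphatase of ERK itself, and SPRY4 passed (−0.64 and −0.85), but control replicate B overlapped the Arg libraries in both, and each call was lost in 4 of the 6 fits. DUSP5 (−0.65), DUSP9 (−0.38), and SPRY2 (−0.80) were the others that fell, and in DUSP5 and SPRY2 control replicate B also overlapped the Arg libraries. Among the called genes, control replicate B was the lowest control in 8 of the 10 early genes and 7 of the 8 phosphatase and feedback genes.
The promoter of DUSP1 is shown because it carries a cAMP response element, the binding motif of the CREB and ATF factors. The window runs from base −220 to base −41 relative to the RefSeq start site, counted as 0 (GRCh38.p14, chr5:172771236-172771415, minus strand). Capitals mark the cAMP response element TGACGTCA and an E-box, CACGTG. Over both strands, the former is found in the promoters of 3.77% and the latter in 12.7% of the 10348 tested genes that have a RefSeq promoter of 300 bases. Of the 17 leading genes with such a promoter, 2 hold the former, DUSP1, which fell, and CNDP2, which rose. The latter is held by 5 of the 17, of which DUSP1, GPX1, and HAS3 fell and CNDP2 and STAG3 rose. A match describes the sequence and is no measure of binding.
DUSP1: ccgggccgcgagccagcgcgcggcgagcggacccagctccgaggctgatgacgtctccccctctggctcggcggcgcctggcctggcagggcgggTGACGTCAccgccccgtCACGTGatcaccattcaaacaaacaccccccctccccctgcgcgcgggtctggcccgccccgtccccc

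**Figure D2:**
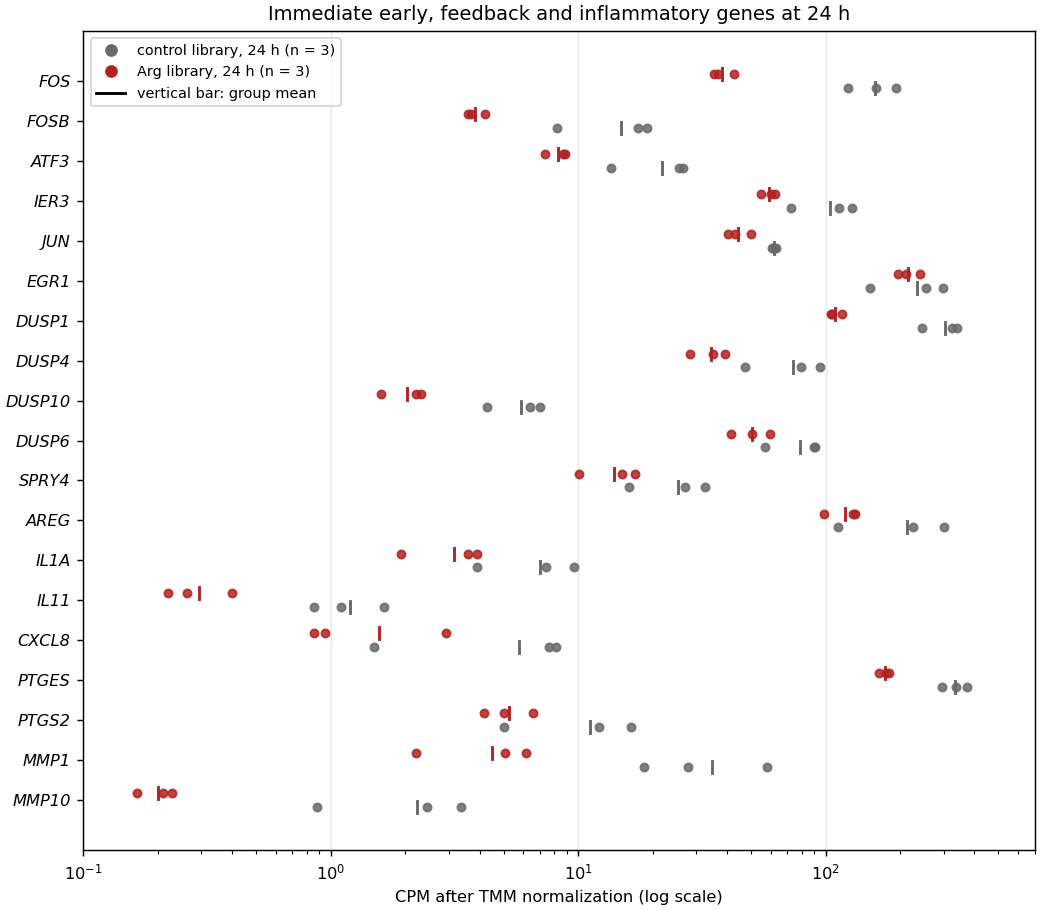
CPM after TMM normalization, on a log axis, of early-response, MAP kinase phosphatase, ERK feedback, inflammatory, and matrix metalloproteinase genes in the 24 h libraries. Grey points are untreated controls and red points Arg libraries, 3 each, and bars are group means. Control replicate B is the lowest grey point in FOS, FOSB, ATF3, IER3, DUSP1, DUSP4, and MMP1, and the EGR1 points without Arg, 152 to 298 CPM, enclose those with Arg, 196 to 239.9 CPM.

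Several ligands and enzymes of inflammation fell with Arg as well. Of the 9 tested EGF receptors and ligands, 2 fell and 0 rose. AREG (amphiregulin), a ligand by which keratinocytes stimulate their own EGF receptor, had 226, 113, and 300.4 CPM in the control and 131, 129, and 98.3 CPM with Arg (−0.83, adjusted p = 0.0281). The groups overlapped through control replicate B, and the call held in 1 of the 6 fits that left out a library. EPGN (epigen), another ligand of this receptor, fell by 0.53 on the log2 scale and kept its call in 2 of the 6 fits. Of the list, 1 gene rose and 4 fell without control replicate B, against 1 and 3 with the replicate block.
Of 16 tested interleukins and chemokines, 3 fell and 0 rose. IL1A, an alarm cytokine stored in keratinocytes, had 7.45, 3.92, and 9.66 CPM in the control and 1.93, 3.59, and 3.89 CPM with Arg (−1.16). CXCL8, which attracts neutrophils, had 7.66, 1.49, and 8.13 CPM and 2.92, 0.855, and 0.947 CPM (−1.87, adjusted p = 0.0320), with overlapping groups. IL11, a cytokine of the IL-6 family, was lower in all Arg libraries (−2.01), but its level there rested on 4 to 7 counts per library. Each of the 3 calls was lost in 4 of the 6 fits without a library, and 1 of the list rose and 4 fell without control replicate B.
In the prostaglandin list, 4 of 13 tested genes fell and 0 rose (median −0.33), and they span the route from membrane lipid to prostaglandin E. PLA2G4A, the cytosolic phospholipase that releases arachidonic acid, fell by 0.61 on the log2 scale. The cyclooxygenases PTGS1 (−0.38, adjusted p = 0.0215) and PTGS2 (−1.09, adjusted p = 0.0372) make the prostaglandin precursor from it. PTGES, the prostaglandin E synthase, had 371, 296, and 336 CPM in the control and 164, 175, and 181 CPM with Arg (−0.95, adjusted p = 3.98e-06). PTGES kept its call in all 6 fits without a library, whereas PTGS1 kept it in 3 and PTGS2 and PLA2G4A in 2. The PTGS2 groups overlapped, since control replicate B (5.02 CPM) lay within the range of the Arg group.
In the list of NF-κB subunits and feedback genes, 3 of 16 tested fell and 0 rose. They were TNFAIP3 (−0.81), which encodes the ubiquitin-editing enzyme A20, NFKBIA (−0.37), which encodes the inhibitor IκBα, and BCL3 (−0.78). The call of BCL3 was lost in all 6 fits without a library, that of NFKBIA in 4, and that of TNFAIP3 in 3. Of the 14 tested antimicrobial and antiprotease genes, 0 passed the adjusted threshold in edgeR's test, 4 had an unadjusted p under 0.05, and 0 passed with DESeq2. The list median was −0.24, and 2 of the list fell without control replicate B.
Interferon-stimulated genes fell in 8 of 35 cases and rose in 1 (median −0.25). RSAD2 (viperin) had 12.8, 9.44, and 17.2 CPM in the control and 5.40, 5.98, and 5.94 CPM with Arg (−1.18). ISG15, a ubiquitin-like modifier, had 107, 72.7, and 149 CPM and 53.5, 64.9, and 60.4 CPM (−0.88, adjusted p = 0.00471). IRF7 (−0.68), the nuclease gene ISG20 (−1.50), OASL (−0.52), DDX58 (−0.50), HLA-B (−0.32), and B2M (−0.38) were the other members that fell. STAT2, a subunit of the interferon-activated transcription factor, rose (0.68, adjusted p = 0.00634).

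Matrix-degrading enzymes showed the widest differences of all named genes. MMP1, the interstitial collagenase (chromosome 11, 102789920 to 102798160, minus strand), had 27.9, 18.4, and 58.3 CPM in the control and 6.17, 5.07, and 2.21 CPM with Arg. The log2 fold change was −2.96 (SE 0.35, adjusted p = 6.06e-05 from edgeR's test). The control libraries spread widely, with replicate B again the lowest, but each of them lay above every Arg library. MMP10 (stromelysin-2), its neighbour on chromosome 11 (102770503 to 102780628), had 2.45, 0.883, and 3.35 CPM in the control and 0.165, 0.228, and 0.210 CPM with Arg (−3.42, SE 0.57). Its Arg values stood for only 3 to 4 counts per library.
ADAM8, a membrane-bound metalloprotease, fell from 13.6, 7.89, and 9.27 CPM to 3.47, 4.10, and 2.63 CPM, and TIMP3, an inhibitor of metalloproteases in the matrix, from 350.0, 374, and 392 CPM to 252, 262, and 251 CPM. These 4 genes kept their calls in every fit that left out a library. The other 13 tested genes of the list, MMP2, MMP14, and TIMP1 among them, did not pass, and the list median was −0.06.
Among 31 tested integrins, laminins, and matrix genes, 4 fell and 2 rose. The collagen receptor subunit ITGA2 (−0.83), the fibronectin receptor subunit ITGA5 (−0.56), tenascin C, TNC (−0.83), and the fibril-associated collagen COL12A1 (−0.62) fell. FN1 (fibronectin) and SPARC rose, FN1 from 129.9, 117, and 165 CPM to 184, 212, and 183 CPM (0.49, adjusted p = 0.0106). Of 19 plasminogen activator, serpin, and kallikrein genes, 2 changed (10.5%, against 6.63% of all genes). They were SERPINE2 (−1.02), a protease inhibitor of the matrix, and SERPINB8 (−0.53). SERPINB8 lost its call in 4 of the 6 fits without a library. In this list, 1 rose and 3 fell with the replicate block, and 3 rose and 4 fell without control replicate B.

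Few keratinocyte identity genes changed, and they did so in both directions. Among 19 basal layer genes, KRT19 and BCAM rose and ITGA6 fell, against 4 that rose and 1 that fell with the replicate block and 4 and 3 without control replicate B. BCAM did not pass with DESeq2 (adjusted p = 0.159) or with all 12 libraries in one model and kept its call in 2 of the 6 fits without a library. KRT19, a keratin of simple and some basal epithelia, had 1859.9, 2510.5, and 1686 CPM in the control and 2979, 3285, and 3832 CPM with Arg (0.74, adjusted p = 0.00128). The basal keratins KRT5 (0.20, adjusted p = 0.161) and KRT14 (0.32, adjusted p = 0.0571) did not pass. KRT14 lay just outside the threshold and passed it in 7 of 9 other settings that kept all libraries. TP63, the master regulator of basal keratinocytes, had a log2 fold change of 0.07 (adjusted p = 0.750).
In the suprabasal and cornified envelope list, 3 of 31 genes rose and 0 fell (9.7%, against 6.63% of all genes, median 0.28). They were ZNF750 (1.38), PPL (periplakin, 0.54), and EMP1 (0.25). Each of these calls was lost in at least 4 of the 6 fits without a library, and ZNF750, with 167 counts in the 6 libraries, overlaps TBCD, with 9429, on the opposite strand. Without control replicate B, 10 genes of the list rose and 2 fell. KRT10 (0.15) and IVL (involucrin, 0.35), markers of early and later suprabasal cells, did not pass the test.
The S100 proteins, small calcium-binding proteins of which several mark activated epithelium, were lower in 4 of 13 cases and higher in 0 (median −0.41). S100A2 had 376, 275, and 538 CPM in the control and 186, 212, and 222 CPM with Arg. S100A4 (−0.84), S100A9 (−0.53), and S100A13 (−0.46) also fell, the last with its call lost in 3 of the 6 fits without a library. S100A4 shares its strand and part of its position with S100A3, which had 185 counts against 2678. Of 29 junction genes, 3 fell, among them CLDN1 (claudin-1, −0.52) and the connexin GJB5 (−0.78), and the desmosomal PKP1 rose (0.54). PKP1 did not pass with DESeq2 and kept its call in 2 of the 6 fits, and 4 junction genes rose and 4 fell without control replicate B. The value of GJB5 is uncertain, since its position overlaps a gene on the opposite strand.

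Genes encoded in the mitochondrial genome fell together. Of 13 protein-coding mitochondrial genes, 12 fell and 0 rose, and the list median was −0.71. The log2 fold changes of the 12 lay between −0.93 and −0.39. MT-ND1, a subunit of complex I, had 343, 348, and 335 CPM in the control and 176, 155, and 206 CPM with Arg (−0.93, adjusted p = 8.71e-06). MT-CO2, of cytochrome c oxidase, had 1387, 1465, and 1422 CPM and 841, 670.3, and 857 CPM (−0.85), and MT-CYB fell by 0.71. In each of these genes, every Arg library lay below every control library.
A ribosomal RNA of the mitochondrion, MT-RNR1, also fell, with 457, 436, and 460.2 CPM in the control and 257, 217, and 204 CPM with Arg (−0.997, adjusted p = 2.33e-06 in edgeR's test). The paper describes poly(A) RNA sequencing, and how far the capture of a ribosomal RNA in such libraries enters this value was not tested. Together, mitochondrially encoded genes took 1.20%, 1.30%, and 1.23% of the counts of the control libraries and 0.802%, 0.624%, and 0.776% of those of the Arg libraries. The share is made of the same counts, and its part in the calls of other genes was not tested. Copies of mitochondrial sequence in the nuclear genome can share reads with these genes.
The nuclear-encoded subunits of the same complexes had medians nearer to 0. Of 37 tested complex I subunits, 3 fell and 0 rose (8.1%, against 6.63% of all genes, median −0.08), namely NDUFB8 (−0.76), NDUFB10 (−0.34), and NDUFA4 (−0.30). Of the complex I list, 5 fell without control replicate B. Of 38 subunits of complexes II to V, 3 fell and 0 rose (7.9%, against 6.63% of all genes, median −0.14), namely CYC1 (−0.38, adjusted p = 0.00509), ATP5PO (−0.53, adjusted p = 0.00290), and COX7B (−0.44). Below 0 lay 34 of these 38 genes, against 7063 of all 14279 tested genes, and 11 of the 38 fell without control replicate B. NDUFB8 and NDUFA4 kept their calls in 2 and NDUFB10 and COX7B in 3 of the 6 fits without a library. NDUFB8 overlaps HIF1AN on the opposite strand.
GPX1, which encodes the glutathione peroxidase that removes hydrogen peroxide, was among the 12 genes that fell with the smallest p. It had 235, 246, and 256 CPM in the control and 120.0, 129, and 139 CPM with Arg, a 1.90-fold decrease, with no overlap between the groups. GPX4, which reduces lipid peroxides, also fell (−0.38, adjusted p = 0.0174). Both genes encode selenoproteins, as does TXNRD1, which rose (0.33, adjusted p = 0.0414 in edgeR's test).

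In the genes that respond to and use glucose, those that changed all fell, at the same glucose concentration in both groups. TXNIP, an inhibitor of glucose uptake and of thioredoxin that glucose strongly induces, had 109, 113, and 143 CPM in the control and 49.9, 45.9, and 51.4 CPM with Arg. The log2 fold change was −1.31 (SE 0.10, adjusted p = 6.49e-07 from edgeR's test), and the call held in every fit that left out a library. Its paralog ARRDC4 fell by 0.51 on the log2 scale. The other 8 tested genes of the list, which holds glucose-sensing transcription factors and arrestin-domain relatives, did not pass.
The TXNIP promoter is shown because it holds a carbohydrate response element, 2 E-box-like half-sites set 5 bases apart, through which glucose is known to act on this gene. The half-sites CACGAG are in capitals in the window from base −220 to base −41 (GRCh38.p14, chr1:145996620-145996799, minus strand). The half-site alone occurs in the promoters of 11.1% of the tested genes with a RefSeq promoter, and the pair at this spacing in 2 of these 10348 genes (0.0193%). The letters of the half-site were chosen after this sequence was seen, so TXNIP is among the 2 by choice and the share is no test. Looser forms of the element were not searched.
TXNIP: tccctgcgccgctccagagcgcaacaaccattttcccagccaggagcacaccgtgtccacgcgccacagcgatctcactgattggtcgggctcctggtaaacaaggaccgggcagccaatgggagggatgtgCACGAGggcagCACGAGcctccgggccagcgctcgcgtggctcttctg
Of 27 genes of glucose uptake, glycolysis, and lactate handling, 4 fell and 0 rose (14.8%, against 6.63% of all genes). Below 0 lay 23 of the 27 (median −0.12), against 7063 of all 14279 tested genes. SLC16A3, which exports lactate, had 92.8, 66.9, and 74.4 CPM in the control and 36.1, 44.7, and 43.0 CPM with Arg (−0.92, adjusted p = 0.000124). It overlaps CSNK1D on the opposite strand, which had a log2 fold change of −0.02. LDHA, which converts pyruvate to lactate, had 2641, 2309, and 2465 CPM and 2008, 1747, and 1863 CPM (−0.40). PFKFB3, which makes an activator of glycolysis, fell by 0.61 on the log2 scale. LDHB, the other lactate dehydrogenase subunit, passed with overlapping groups (−0.67, adjusted p = 0.0379) and lost its call in 4 of the 6 fits without a library.

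The genes that take up and use Arg itself moved in a mixed way, with 6 of 38 tested genes lower and 1 higher (median −0.09). SLC7A2, an inducible cationic amino acid transporter, had 73.6, 50.3, and 82.9 CPM in the control and 28.4, 26.4, and 23.04 CPM with Arg (−1.41, adjusted p = 1.27e-05). Every Arg library lay below every control library, and the call held in all 6 fits without a library. SLC7A1, the main cationic transporter of most cells, did not pass, with 339, 442, and 380.1 CPM in the control and 415, 418, and 471 CPM with Arg (0.17, adjusted p = 0.296).
ARG2, the mitochondrial arginase, fell from 23.7, 18.0, and 19.6 CPM to 13.7, 9.92, and 10.5 CPM (−0.84, adjusted p = 0.00302), although it overlaps VTI1B on the opposite strand (6365 counts against 1739). Downstream of arginase, OAT, which turns ornithine toward proline and glutamate, fell (−0.35), ALDH4A1, a later enzyme of proline breakdown, rose (0.54), and ODC1, which turns ornithine toward polyamines, did not pass (−0.04, adjusted p = 0.883). SAT1, which breaks polyamines down, fell from 149.7, 112, and 175 CPM to 96.2, 79.6, and 79.7 CPM. CKB, the brain-type creatine kinase, fell by 0.55 and the amino acid exchanger gene SLC7A6 by 0.37 on the log2 scale. The call of OAT was lost in 3 of the 6 fits without a library. ASS1 (0.18) and ASL (−0.02), which rebuild Arg from citrulline, did not pass the test.
Targets of ATF4, the factor that amino acid shortage raises, rose in 5 of 42 cases and fell in 0 (11.9%, against 6.63% of all genes, median 0.09). STC2 had 56.9, 43.6, and 52.6 CPM in the control and 72.8, 87.7, and 75.1 CPM with Arg (0.62, adjusted p = 0.00203). SLC7A11, the cystine importer, rose by 0.57, ALDH1L2, a mitochondrial folate enzyme, by 0.79, ATF5 by 0.38, and EPRS, a tRNA synthetase, by 0.26. ATF5 kept its call in 3 and EPRS in 2 of the 6 fits without a library, and without control replicate B 6 of the list rose and 2 fell. ALDH1L2 and ATF5 overlap more abundant genes on the opposite strand. NUP62, which overlaps ATF5, rose itself (0.32, adjusted p = 0.0249). Of the key genes of this response, ATF4 (0.10, adjusted p = 0.448), DDIT3 (0.00), TRIB3 (0.19), SESN2 (0.24), and ASNS (0.73, adjusted p = 0.263) did not pass. ASNS had at most 2.47 CPM in any library.
Of 33 tested genes of amino acid sensing upstream of mTORC1, 1 fell, the mTOR subunit MLST8 (−0.31, adjusted p = 0.0312), and 0 rose (3.0%, against 6.63% of all genes). The call of MLST8 was lost in 4 of the 6 fits without a library and with all 12 libraries in one model (adjusted p = 0.0561). In the list, 1 gene rose and 2 fell without control replicate B. CASTOR1, the cytosolic Arg sensor, had at most 5 counts in any of the 6 libraries and was not tested.

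**Figure D3:**
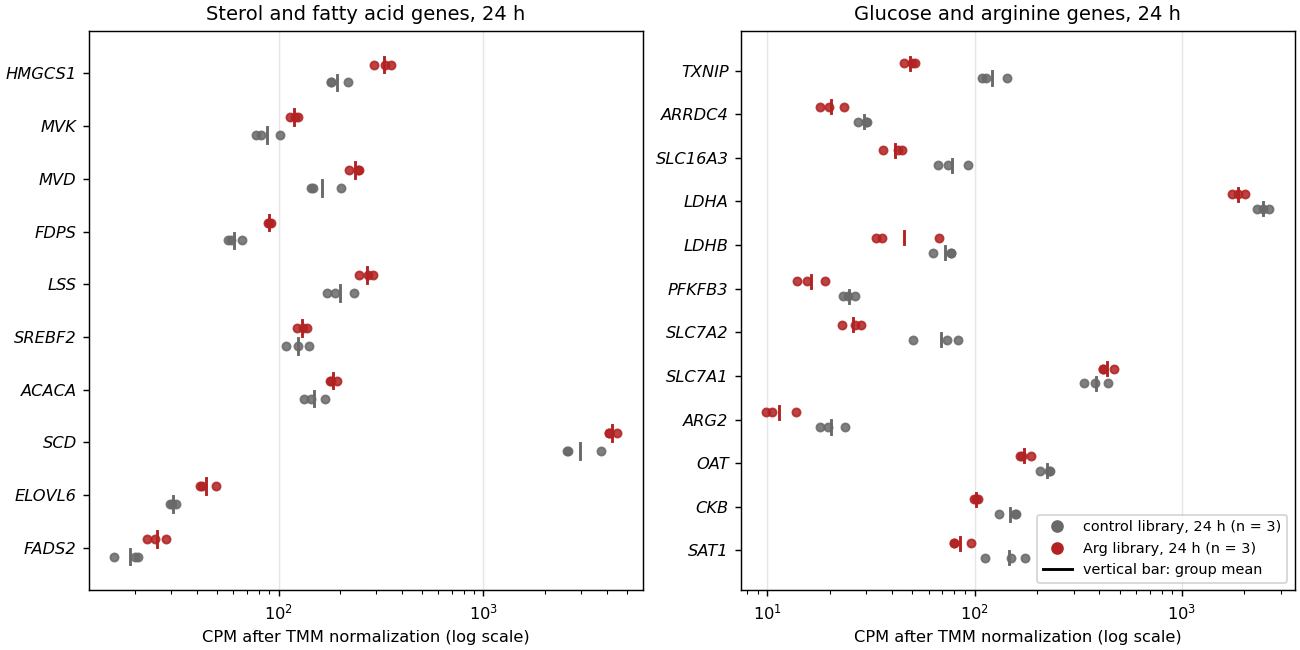
CPM after TMM normalization, on log axes, of sterol and fatty acid genes (left) and of glucose and Arg genes (right) in the 24 h libraries (grey, untreated control; red, Arg; 3 each; bars, group means). The Arg libraries lie to the right of the controls in HMGCS1, FDPS, MVD, and ELOVL6 and to the left in TXNIP, SLC16A3, SLC7A2, and ARG2.

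Several genes of sterol and fatty acid synthesis rose. Of 34 tested genes of cholesterol synthesis and uptake, 8 rose and 1 fell (26.5% changed, median 0.17). Those that rose encode enzymes along the mevalonate and sterol route, and the gene that fell, NPC1 (−0.31), encodes a lysosomal cholesterol exporter. HMGCS1, which makes HMG-CoA, the precursor of mevalonate, had 179.9, 219, and 179.9 CPM in the control and 355, 332, and 292 CPM with Arg. The log2 fold change was 0.76 (SE 0.094, adjusted p = 9.76e-05 from edgeR's test).
FDPS, which makes farnesyl diphosphate, rose from 58.8, 66.3, and 56.3 CPM to 89.1, 89.9, and 91.8 CPM (0.58), and MVD, which makes isopentenyl diphosphate, from 147, 201, and 143 CPM to 219.8, 248, and 244 CPM (0.54). MVK (0.45), LSS (0.44), ACAT2 (0.32), TM7SF2 (0.60), and HSD17B7 (0.44) were the others. In HMGCS1, FDPS, MVD, MVK, and LSS the groups did not overlap. Without control replicate B, 13 of the list rose and 1 fell. HMGCS1 and FDPS kept their calls in all 6 fits without a library, MVD in 5, and MVK and LSS in 2. MVK overlaps MMAB on the opposite strand. The regulator SREBF2 did not pass (0.06, adjusted p = 0.751).
A RefSeq promoter was at hand for 26 of the 34 genes, and the CCAAT box, the motif bound by NF-Y, which works beside SREBP factors at many sterol genes, was found on either strand in 19 of them (73.1%), against 43.0% of the tested genes with a promoter. Among the genes that rose, 7 have a promoter, and each of the 7 held the box in at least 1 of its promoters. The sterol regulatory element in the form TCACNCCAC was found in 1 of the 26, against 1.39% of the tested genes. The promoters of 3 of the genes that rose are shown from base −220 to base −41 for their repeated CCAAT boxes, in capitals, which read ATTGG where the box lies on the other strand. HMGCS1 lies at chr5:43313453-43313632 (minus strand), FDPS at chr1:155308646-155308825 (plus strand), and MVD at chr16:88663132-88663311 (minus strand) of GRCh38.p14.
HMGCS1: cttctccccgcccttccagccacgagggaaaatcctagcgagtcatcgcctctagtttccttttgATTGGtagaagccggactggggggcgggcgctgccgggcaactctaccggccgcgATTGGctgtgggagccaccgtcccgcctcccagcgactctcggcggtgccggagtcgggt
FDPS: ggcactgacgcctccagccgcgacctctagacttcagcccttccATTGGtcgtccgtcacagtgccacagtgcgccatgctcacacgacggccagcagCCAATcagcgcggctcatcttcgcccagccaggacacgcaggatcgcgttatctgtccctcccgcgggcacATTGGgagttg
MVD: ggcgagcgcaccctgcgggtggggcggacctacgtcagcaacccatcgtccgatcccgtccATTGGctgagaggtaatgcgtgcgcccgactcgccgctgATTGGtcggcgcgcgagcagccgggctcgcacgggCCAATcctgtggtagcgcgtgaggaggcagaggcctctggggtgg
HMGCS1 held 2 boxes in this window and FDPS and MVD 3 each.
Of 21 genes of fatty acid synthesis and desaturation, 5 rose and 0 fell (median 0.08). ELOVL6, which lengthens palmitate, had 31.6, 30.1, and 29.6 CPM in the control and 49.5, 42.3, and 41.3 CPM with Arg (0.54, adjusted p = 0.00351). The desaturase SCD, which makes oleate, had 2578, 3749, and 2560.1 CPM and 4100.3, 4103, and 4510.5 CPM (0.52, adjusted p = 0.0110). SCD did not pass with DESeq2 (adjusted p = 0.0873) or in 3 of the 6 fits without a library. SCD5 (0.39), FADS2 (0.44), and ACACA (0.31), the carboxylase that commits carbon to fatty acids, passed narrowly, with adjusted p-values between 0.0470 and 0.0485 in edgeR's test, and kept their calls in 1 or 2 of the 6 fits without a library. FADS2 overlaps FADS1 and FEN1. Of the list, 8 genes rose without control replicate B and 3 with the replicate block or with scaling by library size only.

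In the list of the aryl hydrocarbon receptor, a ligand-activated transcription factor, which holds the receptor, its partners, and several of its targets, 2 of 14 tested genes rose and 1 fell. CYP1A1, its classical target, belongs to the 4 classes set apart and is not counted in this list, and it rose too (1.28, adjusted p = 7.50e-06). CYP1B1, a cytochrome P450 that this receptor induces, was the gene with the smallest p among those that rose outside the 4 classes. It had 49.1, 59.5, and 59.1 CPM in the control and 98.9, 97.2, and 110.2 CPM with Arg (0.87, 1.83-fold), with no overlap between the groups, and RMDN2, which overlaps it on the opposite strand, had a log2 fold change of 0.03. NQO1, a quinone reductase, rose from 359, 308, and 338 CPM to 528, 451, and 419 CPM (0.48, adjusted p = 0.00426). ARNT2, a relative of the receptor's partner, fell from 3.83, 5.08, and 3.81 CPM to 0.496, 1.37, and 1.16 CPM. The targets AHRR and TIPARP did not pass. AHRR had a log2 fold change of 0.09 and TIPARP of −0.28, and the receptor gene AHR one of −0.02.
The NRF2 list, of antioxidant, glutathione, and thioredoxin genes, split in both directions, with 6 of 51 genes higher and 5 lower (median 0.01). GCLC, the rate-limiting enzyme of glutathione synthesis, rose from 81.5, 97.3, and 88.1 CPM to 146, 122, and 132 CPM (0.58, adjusted p = 0.000980), and with it NQO1, SLC7A11, GSR (0.35), TXNRD1 (0.33), and OSGIN1 (0.41). Besides GPX1 and GPX4, GSTP1 (−0.28) and the aldo-keto reductases AKR1C1 (−0.95) and AKR1B10 (−1.78) fell. AKR1C1 kept its call in 3 of the 6 fits without a library and belongs to a family of close copies among which counting can split reads. HMOX1, a classical stress target, had a log2 fold change of 0.01 (adjusted p = 0.988).
TRIM16 and TRIM16L, near-identical copies whose reads cannot be fully told apart, both rose, TRIM16 from 31.1, 34.9, and 30.8 CPM to 51.2, 55.6, and 55.5 CPM (0.75) and TRIM16L by 0.67.
Some metallothioneins, which bind zinc and copper, fell. MT2A had 2659, 1847, and 2714 CPM in the control and 1394, 1269, and 1081 CPM with Arg (−0.95, adjusted p = 0.000124), and MT1E fell by 0.44 with overlapping groups. With the zinc importer SLC39A10 (−0.48), 3 of 7 tested genes fell and 0 rose (median −0.43). MT1E and SLC39A10 each kept their call in 2 of the 6 fits without a library. Metallothionein genes are close copies of each other, so reads may have been split between them.

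The 12 genes that rose with the smallest p had smaller shifts, with log2 fold changes between 0.55 and 1.14. TRNP1, a nuclear protein tied to the proliferation of progenitor cells, had 59.5, 51.6, and 50.4 CPM in the control and 86.9, 95.8, and 92.0 CPM with Arg (0.77). HMGB2, a DNA-bending chromatin protein of proliferating cells, had 194, 181, and 184 CPM and 279, 296, and 276 CPM (0.61, adjusted p = 9.67e-05). With HMGB3 (0.43) and HMGN2 (0.26), 3 of 12 high mobility group genes rose and 0 fell, with the call of HMGN2 lost in 4 of the 6 fits without a library.
Genes of the actin cytoskeleton were also among them. TPM1 (tropomyosin) had 66.9, 73.3, and 73.1 CPM in the control and 114, 108, and 116 CPM with Arg (0.67). TAGLN (transgelin), an actin-binding protein of contractile cells, had 7.500, 7.29, and 6.03 CPM and 16.3, 15.3, and 14.2 CPM (1.14), a 2.20-fold increase. TAGLN overlaps PCSK7 on the opposite strand (2602 counts against 1214), which did not pass (0.21). JPH2, a junctophilin that ties membranes together, rose by 0.85. In a list of giant linker, membrane skeleton, and FAT cadherin genes, 4 of 28 rose and 3 fell. MYH9 (non-muscle myosin, 0.47), FLNA (filamin A, 0.36), AHNAK2 (0.78), and SPTBN1 (0.33) rose, and the nuclear linker SYNE2 (−0.66), MACF1 (−0.41), and the giant cadherin FAT1 (−0.32) fell. FLNA kept its call in 3 and MACF1 in 2 of the 6 fits without a library, and 8 of the list rose and 4 fell without control replicate B. AHNAK2 did not pass with DESeq2 (adjusted p = 0.057) or without control replicate A.
STAG3, the cohesin subunit of meiosis, rose by 0.90 and CNDP2, a dipeptidase, by 0.55.
The insulin-like growth factor axis had the largest share of called genes among lists of more than 10 tested genes other than the mitochondrial one, with 5 of 14 higher and 3 lower (57.1%). IGFBP3, the main carrier of these factors, rose from 47.5, 78.2, and 59.5 CPM to 113, 124, and 118 CPM (0.94, adjusted p = 0.000244). IGFBP3 kept its call in all 6 fits without a library but not with all 12 libraries in one model (adjusted p = 0.169 in edgeR's test). The ligand gene IGF2 rose (1.28) at a level of at most 7.10 CPM. The mRNA-binding proteins IGF2BP1 (0.48) and IGF2BP3 (0.47) and the adaptor IRS2 (0.32) rose. IRS1, the other adaptor of insulin and IGF receptors, fell from 77.2, 86.3, and 87.8 CPM to 58.4, 57.4, and 53.8 CPM (−0.57), and so did IGFBP4 (−0.36) and IGFBP7 (−0.32). IRS1 and IRS2 thus moved in opposite directions.

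Other signalling lists changed in few members. In the WNT list, the receptor FZD8 (−1.49) and the antagonists SFRP1 and DKK1 (−0.51) fell and DKK3 rose (0.59), 4 of 34 tested genes (11.8%, against 6.63% of all genes). In the Notch list, the ligands DLL3 (−0.64) and DLL4 (−1.71) fell, 2 of 21 (9.5%). Of 39 TGF-β, BMP, and SMAD genes, the ligand TGFB1 (−0.41) and the target ID1 (−0.76) fell (5.1%, against 6.63% of all genes). This list had 1 call with DESeq2, 4 with the replicate block, and 5 without control replicate B, 1 higher and 4 lower. In the FGF list, the receptors FGFR1 (−0.87) and FGFR4 (−0.54) fell and the carrier FGFBP1 rose (0.34), 3 of 12. In the YAP and TEAD list, the coactivator WWTR1 (−0.59), TEAD2 (−0.51), and DLC1 (−0.63) fell and AJUBA (0.41) and AMOTL2 (0.40) rose, 5 of 20. Of 14 Krüppel-like factors, KLF4 alone passed (7.1%). Without control replicate B, 2 Notch genes rose and 2 fell, 3 FGF genes rose and 2 fell, and 3 Krüppel-like factors fell. The calls of DKK1, DLL4, ID1, TEAD2, and DLC1 were lost in at least 4 of the 6 fits without a library, those of FGFR4, FGFBP1, and AMOTL2 in 3, and the groups overlapped in DKK1 and ID1.
Hydrocortisone was present in both media, and the glucocorticoid-induced genes split. TSC22D3 (GILZ), a classical target of the receptor, rose from 29.4, 48.7, and 41.6 CPM to 68.8, 69.6, and 75.3 CPM (0.84, adjusted p = 0.00100), as did GADD45B (0.52). DUSP1, MT2A, and ANGPTL4 (−1.67, 113 counts in the 6 libraries), which glucocorticoids also induce, fell, and the other 11 of the 16 did not pass. In the clock list, the activator ARNTL (−0.50), the repressors NR1D2 (−0.49) and BHLHE40 (−0.50), and the kinase CSNK1E (−0.51) fell and PER3 rose (0.50), 5 of 21. The calls of ANGPTL4 and BHLHE40 were lost in 5 and 6 of the 6 fits without a library, that of PER3 in 4, and those of GADD45B and NR1D2 in 3.
Among 35 heat shock and chaperone genes, 4 fell and 0 rose (11.4%, against 6.63% of all genes). HSPA6, an HSP70 gene with almost no basal expression in most cells, had 19.7, 9.83, and 50.7 CPM in the control and 3.80, 4.27, and 3.10 CPM with Arg (−2.84, SE 0.41, adjusted p = 0.000417). The 3 control libraries differed widely among themselves and yet all lay above the Arg libraries. HSPA2 (−0.37), HSPA4L (−0.38), and HERPUD1 (−0.32) were the others. HSPA4L kept its call in 3 and HERPUD1 in 1 of the 6 fits without a library, and 7 of the list fell without control replicate B.
Of 41 lysosome and autophagy genes, 5 fell and 1 rose. Those that fell were the cathepsins CTSB (−0.51) and CTSC (−0.41), the mitophagy receptor BNIP3 (−0.49), the proton pump subunit ATP6V1F (−0.38), and GABARAPL2 (−0.34), of which CTSC and ATP6V1F kept their calls in 2 of the 6 fits without a library. Of 72 chromatin regulators, SETD5 (0.48) and DNMT3B (0.54) rose and the deacetylase SIRT1 (−0.40) fell. DNMT3B and SIRT1 each lost their call in 4 of the 6 fits. Without control replicate B, 16 chromatin regulators rose and 1 fell. Of 50 nucleoporins and transport receptors, NUP210 (0.66), NUP214 (0.38), and NUP62 (0.32) rose, the last 2 with calls kept in 2 of the 6 fits. The shares of called genes in these last 2 lists, 4.2% and 6.0%, lay below the 6.63% of all genes.

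**Figure D4:**
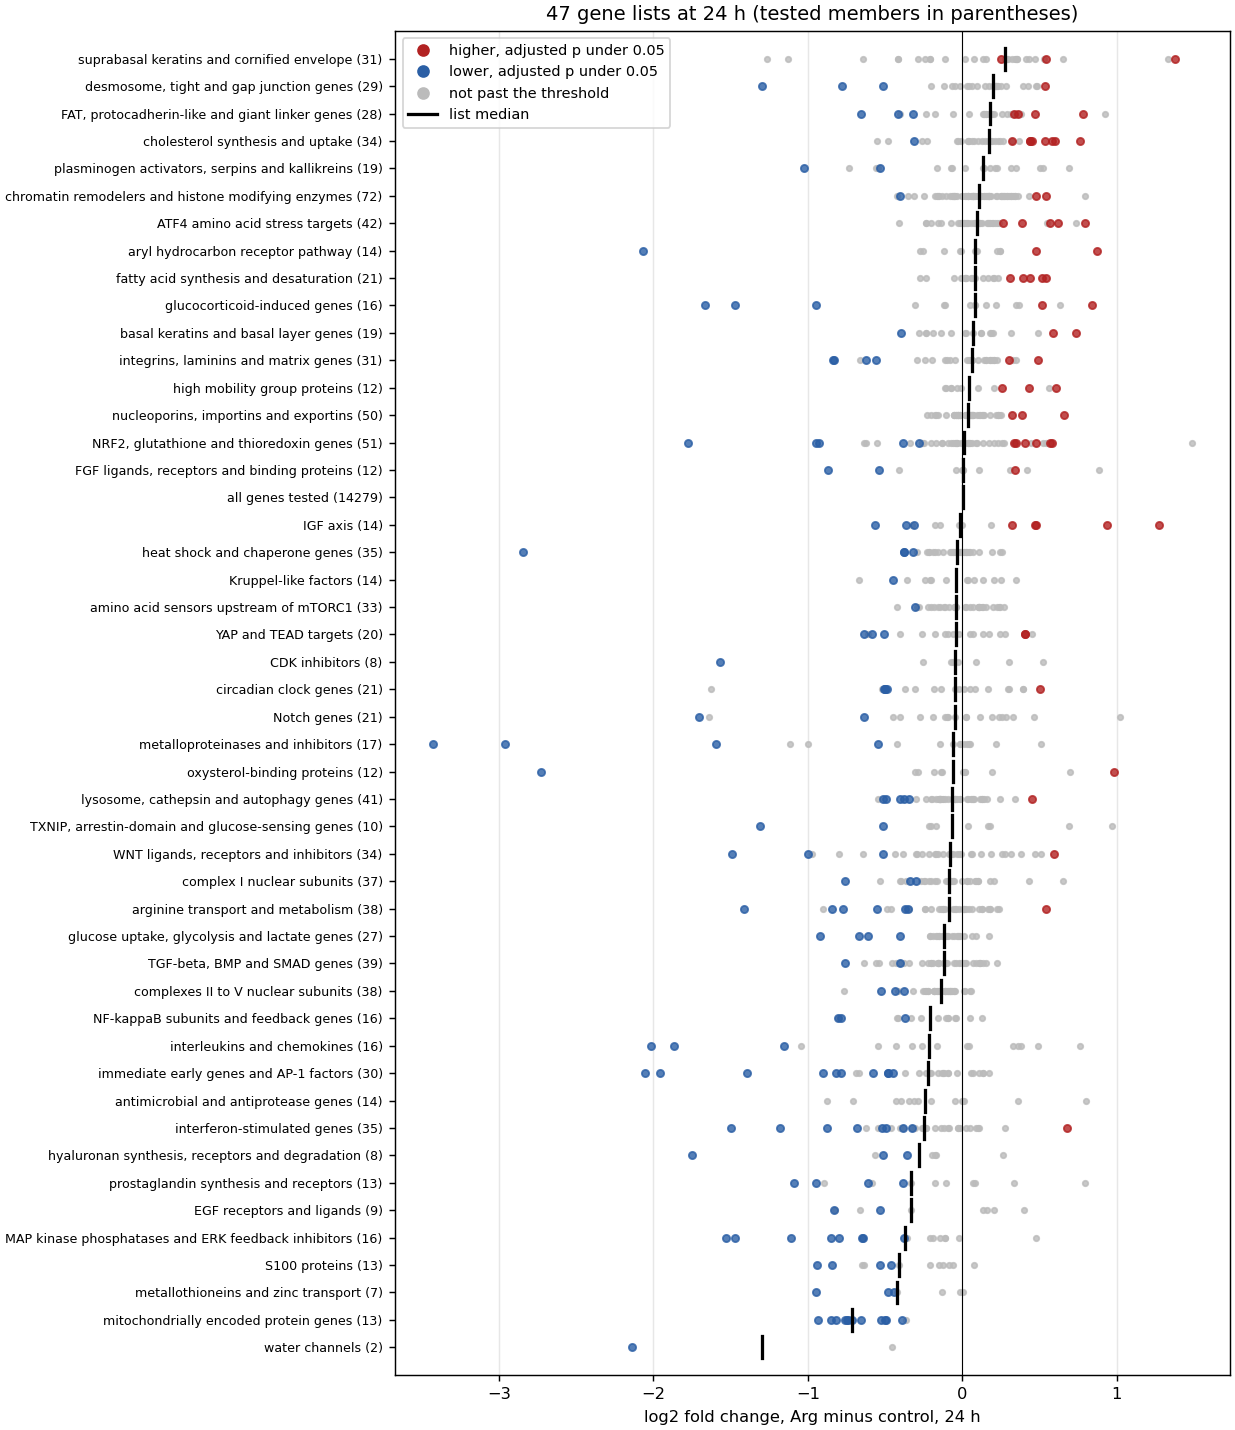
Log2 fold changes (Arg minus control, 24 h) of the tested members of 47 gene lists, with a row for the median of all 14279 tested genes; each point is a gene, coloured where it passed an adjusted p of 0.05, and each black bar is a list median. The mitochondrially encoded genes and the water channels lie farthest left, and the list medians above 0 stay within 0.28.

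The effect at 24 h was set beside that at 48 h in a model of all 12 libraries, in which the difference between the effects is the interaction of treatment and time. At 48 h, control replicate B stood apart. Its level was nearer to the mean of the 48 h Arg libraries than to that of control replicates A and C in 10 of the 12 leading genes that fell at 24 h and in 9 of the 12 that rose. AQP3, for example, had 190.3 and 172 CPM in 48 h control replicates A and C, 86.7 CPM in replicate B, and between 65.8 and 73.7 CPM with Arg. In these 24 genes the direction at 48 h was that of 24 h. Over the genes called outside the 4 classes at 24 h, 311 of the 343 that rose and 493 of the 541 that fell kept their sign at 48 h. Their median log2 fold changes were 0.20 and −0.26 at 48 h, against 0.50 and −0.56 at 24 h. Since these genes were selected by their 24 h test, their 24 h medians tend to be too wide. The smaller 48 h medians therefore do not by themselves show a weaker effect. How many of all tested genes kept their sign was not counted.
The effects differed between the times at an adjusted p under 0.05 in 2 of 15148 genes (0.0132%), and 6.87% had an unadjusted p under 0.05. MT-RNR1 was 1 of them. At 48 h it had 249, 232, and 195 CPM in the control and 192, 202, and 208 CPM with Arg, so that the 48 h groups overlapped, and the log2 fold change was −0.996 at 24 h and −0.17 at 48 h (difference 0.83, SE 0.13, adjusted p = 0.0229 in edgeR's test). FOS was the other. Its 48 h values were 135, 131, and 133 CPM in the control and 79.5, 63.0, and 65.4 CPM with Arg, which did not overlap, and its log2 fold change was −2.05 at 24 h and −0.94 at 48 h (difference 1.11, SE 0.17, adjusted p = 0.0229). Of 12 fits that each left out a library, MT-RNR1 passed in 4 and FOS in 2. The next gene by p was OXCT1, which uses ketone bodies as fuel. Its log2 fold change was 0.52 at 24 h and 0.01 at 48 h, and the difference did not pass (−0.52, adjusted p = 0.135). In the 13 mitochondrially encoded protein genes, the log2 fold changes at 48 h lay between −0.23 and 0.54 and the differences between 0.27 and 1.23, and none passed on its own. The share of mitochondrially encoded counts was 1.55% in 48 h control replicate B, against 0.906% and 0.707% in replicates A and C.

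**Figure D5:**
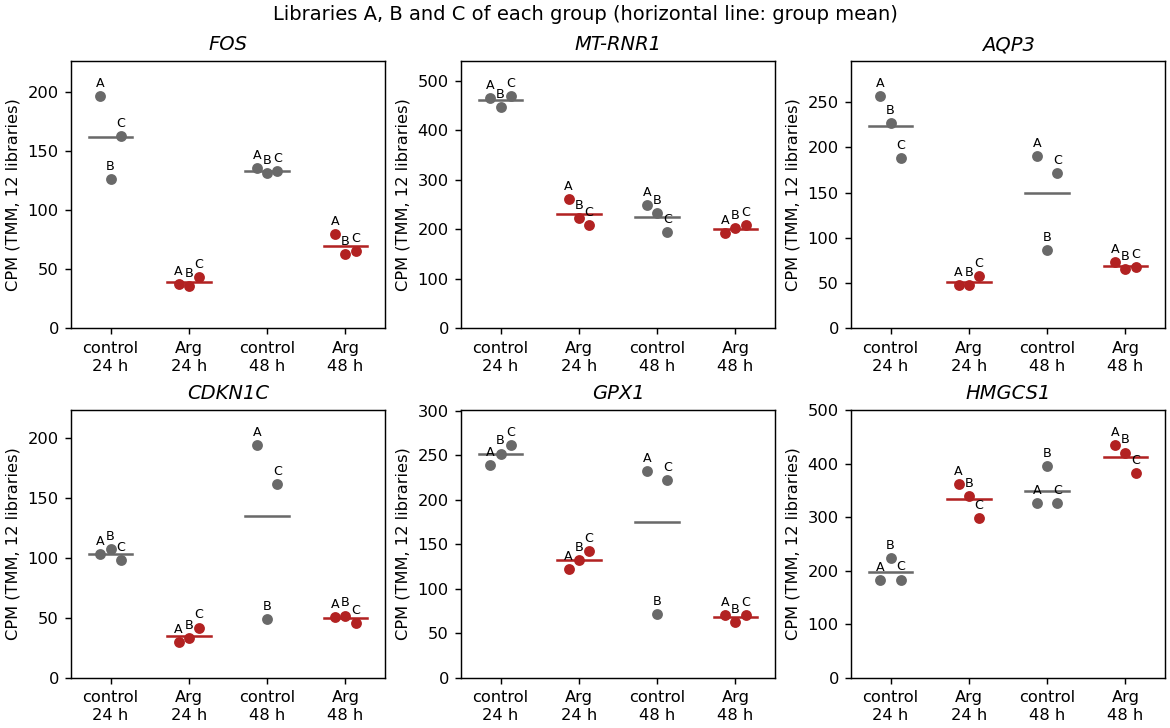
CPM (TMM over 12 libraries) of 6 genes in replicates A, B, and C of the 4 groups, on axes that start at 0 (grey, untreated control; red, Arg; lines, group means). FOS keeps its groups apart at both times, MT-RNR1 does so at 24 h, and 48 h control replicate B lies close to the Arg values in CDKN1C (49.2 CPM) and GPX1 (71.4 CPM).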

How the data were processed

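Poly(A) RNA-seq of TIGK cells was taken from the deposited table of raw read counts per gene. The authors made that table from their reads with fastp, STAR, the human genome build GRCh38 (hg38), and featureCounts, as named in the submitters' processing notes. The annotation release and the strand setting are not given in the sources used here. The table held 58735 genes, of which 29789 had a count in the 24 h libraries. Columns were matched to samples by their names, and no column of another sample was present. The 24 h libraries held 17499361 to 19040964 counts, and at low counts this depth limits the precision, since counting error then adds to the spread between replicates.
Genes were kept with edgeR's filterByExpr (14279 at 24 h), scaled by TMM, and tested with the quasi-likelihood test of edgeR 4.0.16 in R 4.3.3 (limma 3.58.1), 3 Arg libraries against 3 controls, with Benjamini–Hochberg adjustment over all tested genes and a threshold of 0.05. Printed p-values of single genes come from this test unless the interaction is named. The log2 fold changes are Arg minus control as edgeR fits them, gene values are CPM after TMM, and log2 CPM for the principal components and the length trend used a prior count of 2. The difference between the 24 h and 48 h effects was the interaction in a model of all 12 libraries (15148 genes). The code was checked on simulated counts with known changes.
The alternatives were DESeq2 1.42.0, its size factors, scaling by library size only, no filter, at least 10 counts in every library, a replicate block, removal of a trend on exonic length (alone and together with the block), all 12 libraries in one model, and each library left out in turn. The same-letter libraries were not taken as pairs, since no source says that a letter marks a shared culture or day. Replicate libraries differed by more than sampling noise.
Named genes are the 12 with the smallest p in each direction outside the 4 classes, up to 5 called members of each of 47 gene lists by p, a set of key pathway genes whatever their p, and the genes leading the interaction. Further called list members were named after their values were seen, so that nearly all of each list's calls could be given, and a few genes are not reported here. The comparison, the lists, and the classes were chosen with earlier results of these data known. A gene in more than 1 list is counted in each. Promoters are RefSeq sequences on GRCh38.p14, 250 bases before to 50 after the start, found for 17 of the 24 leading genes and 10348 tested genes. The half-site motif of TXNIP was chosen after its sequence was seen.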

Additional observations from a re-analysis of the deposited data

Results flagged for a closer look

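The Arg effect differed between 24 h and 48 h in MT-RNR1 and FOS by edgeR's test of the interaction. For MT-RNR1, the log2 effect at 48 h minus that at 24 h was 0.83, and for FOS it was 1.11, each with an adjusted p of 0.0229. In both genes the decrease was smaller at 48 h. MT-RNR1 is a ribosomal RNA counted in poly(A) libraries, and the part of its capture in this difference was not tested. Across 12 fits that each left out a library, the difference ranged from 0.74 to 0.93 for MT-RNR1, which passed in 4 of them, and from 0.95 to 1.27 for FOS, which passed in 2.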

How the results depend on the processing

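With all libraries kept, the numbers of genes that rose (398), fell (549), and changed outside the 4 classes (884) stayed within 1.5 times under each alternative, from 379, 528, and 850 to 555, 759, and 1224, and with the replicate block they were 379, 545, and 860. The deviations of same-letter libraries from their group means correlated by 0.0305 (A), 0.00714 (B), and −0.0566 (C). Pairs of unlike letters ranged from −0.106 to 0.114. With 3 libraries a group, these values cannot show whether a letter marks a shared culture or day. Of the lists with 3 or more calls, DESeq2 called 1 of the interleukins and of the suprabasal genes in place of 3. It called 5 MAP kinase phosphatase and ERK feedback genes in place of 8 and 7 chaperones in place of 4. It also called 6 chromatin regulators and 6 nucleoporins in place of 3 each. The fatty acid list fell from 5 to 3 with the replicate block and with scaling by library size only. The basal list rose from 3 to 5 with the block. The 6 lists with fewer than 3 calls that moved by over 1.5 times did so by at most 2 genes. Without control replicate B, 21 of the 47 lists held over 1.5 times as many calls. The single libraries mattered more. Leaving out 1 library in turn gave 126 to 647 genes higher, 233 to 882 lower, and 335 to 1424 outside the 4 classes, lowest without control replicate A and highest without control replicate B. For the difference between 24 h and 48 h, 2 genes passed in the reported fit, 19 with DESeq2, 88 with no filter on low counts, 2 with the replicate block, and 0 to 46 when a library was left out, highest without 48 h control replicate B. Over all alternatives of the 170 named genes called at 24 h, 2211 values kept their direction and call, 332 kept their direction and lost the call, and 0 reversed. Of the 24 key genes not called, 18 of their values passed under some alternative. Depth limits the genes with few counts, MMP10, IL11, ASNS, ZNF750, and ANGPTL4 among them, and with 3 libraries a group a missed threshold does not show that a gene kept its level.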
